A study of Mus musculus with 2 samples.

Results

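The 35 genes described here encode cell-surface adhesion molecules of the immunoglobulin superfamily that are known from neurons, together with the contactin-associated proteins that pair with contactins. They were chosen by gene symbol from 10 families, and all 35 have a line among the 32531 gene symbols of both count tables. The data are 2 libraries of 1 group. Both hold ribosome-bound RNA that was purified from dissected dentate gyrus of adult, untreated Lypd1-TRAP OI82 mice. In translating ribosome affinity purification (TRAP), a ribosomal protein fused to EGFP (here EGFP/Rpl10a, driven by Lypd1 regulatory sequence in this transgenic line) is expressed in some cells of a tissue, and its ribosomes are pulled down with anti-EGFP antibodies. Both libraries are pull-downs, so a level describes the purified RNA and says nothing of enrichment. Whether separate or pooled animals gave the replicates is not in the labels, and their spread may be technical.

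Immunoglobulin-family adhesion molecules hold cell membranes together through stacked extracellular immunoglobulin domains, often followed by fibronectin repeats. Some bind their own kind on the facing cell, others bind a relative, and the inner ends of many are tied to ankyrins, protein 4.1 or PDZ-domain scaffolds. In the hippocampus they are known for roles in axon growth and bundling, in the axon initial segment and in the mossy fibre synapses that granule cells, the principal neurons of the dentate gyrus, form in the hilus and in CA3.

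Replicate 1 held 31309643 counts on gene lines and replicate 2 held 32711412. A level is a gene's count per 1000000 gene-line counts (CPM), or CPM per kilobase of annotated exon where genes are compared with each other. Granule cell markers were present throughout, with all 10 of the markers used detected and a summed level of 3858 and 3913 CPM in replicates 1 and 2, including Prox1, the granule cell transcription factor gene (1100 and 1193 CPM). The marker sums of other cell types were lower. The 9 astrocyte markers summed to 827 and 866 CPM, mostly from the glutamate transporter gene Slc1a2 and from Slc4a4, while 10 oligodendrocyte markers summed to 197 and 163 CPM. The 7 markers of CA pyramidal cells summed to 347 and 313 CPM, mostly from Cpne4, and the 6 of oligodendrocyte precursors to 15.2 and 24.8 CPM. The 9 of GABAergic neurons summed to 79.5 and 127 CPM, mostly from Gad1 (50.0 and 75.6 CPM) and Gad2 (19.7 and 42.8 CPM). Markers of hilar mossy cells summed to 463 and 416 CPM, mostly from Gria3, with Calb2 at 3.55 and 1.44 CPM. Microglial markers summed to 2.24 and 2.14 CPM, with C1qa and C1qb at 0, and endothelial markers to 22.8 and 23.2 CPM. How much of any adhesion gene came from such cells was not tested, and in bulk RNA fewer cells of a type cannot be told apart from less RNA per cell.

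Most of the adhesion genes were found in the purified RNA. Detection was set at 1 CPM or more in each library, which 31 of the 35 reached, against 38.1% of all symbols in the tables, many of which have no counts. In both libraries 21 reached 10 CPM (24.6% of all symbols) and 11 reached 100 CPM (6.03%). The median of the detected adhesion genes was 39.1 CPM, against 22.5 CPM for all detected symbols. Exons of the 35 adhesion genes, detected or not, are long, however, with a median of 8.66 kb against 4.83 kb for detected protein-coding genes. Per kilobase of exon the median of the detected adhesion genes was 5.08 CPM per kb. It was 5.16 CPM per kb for the 11834 detected symbols with an annotated length, so the medians were nearly equal on that scale. Together the 35 took 0.346% of gene counts in replicate 1 and 0.296% in replicate 2.

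Per kilobase of exon the highest level was that of Cadm2, at 35.7 ± 0.278 CPM per kb (mean ± SD, n = 2), followed by Cntn1 at 34.3 ± 0.0286, Cadm3 at 29.8 ± 2.86, Ncam1 at 29.5 ± 6.33, Negr1 at 25.7 ± 6.16, Nrcam at 25.0 ± 4.86 and Opcml at 19.8 ± 4.02 CPM per kb. Cadm2 lay above Cntn1, and Cntn1 above Cadm3, in both libraries, but each of the genes from Cadm3 to Opcml overlapped its neighbour in the order. Of the 30 neighbouring pairs among detected members, 22 had overlapping ranges and so were not set apart by their ranges. Ranges do not compare genes within a library. Nrcam (28.5 and 21.6 CPM per kb), for one, was above Opcml (22.6 and 16.9 CPM per kb) in each library. Measured against the longest annotated transcript instead of all exons, the same 7 genes were highest, but their order changed to Cntn1, Negr1, Nrcam, Opcml, Cadm3, Ncam1 and Cadm2. The place of Cadm2 at the top therefore depends on the length used.

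**Figure D1:**
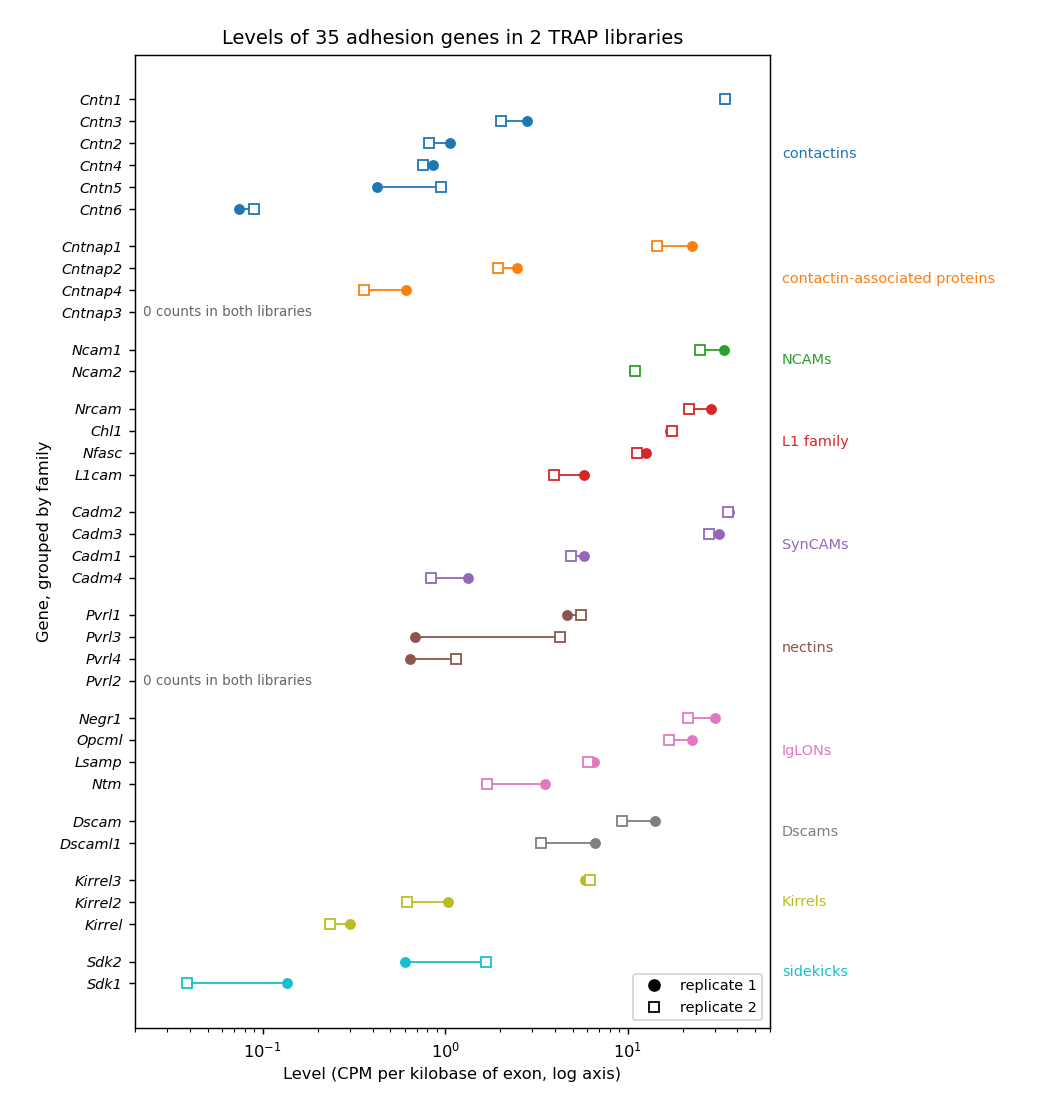
Level of each of the 35 adhesion genes in replicate 1 (filled circles) and replicate 2 (open squares), in CPM per kilobase of exon on a log axis, grouped and coloured by family. Cadm2, Cntn1, Cadm3 and Ncam1 sit at the right, Pvrl3 has the longest line between its libraries (0.684 and 4.26 CPM per kb), and Cntnap3 and Pvrl2 had 0 counts in both.

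Most families, counting only the members chosen here, were carried by 1 or 2 genes. For the NCAMs, Dscams and sidekicks this was fixed in advance, as each has only 2 members here. On the scale per kilobase of exon, the same gene led each of the 10 families in both libraries. The contactins, which are anchored to the outer membrane leaf by a lipid (glycosylphosphatidylinositol, GPI) tail, were one such family. Cntn1 took 86.8% of the contactin total in replicate 1 and 88.1% in replicate 2.

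Cntn1 encodes the contactin that joins Cntnap1 at the axonal side of the paranodal junction with myelin. It stood at 324 CPM in each library, a level that ranked 497 among all symbols. The gene lies on chromosome 15 (92051165 to 92341967, plus strand, GRCm38). Cntn3 followed with 18.9 and 13.6 CPM in replicates 1 and 2. Cntn2, whose product partners Cntnap2 in clustering potassium channels beside the paranode, was at 9.87 and 7.61 CPM. Cntn4, which is known from olfactory and visual axon targeting, was at 7.28 and 6.45 CPM. The lowest were Cntn5, at 1.92 and 4.31 CPM, and Cntn6, at 0.479 and 0.581 CPM from 15 and 19 counts, below the detection threshold. Per kilobase, Cntn2 and Cntn4 overlapped their neighbours in the order.

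Among the contactin-associated proteins, which span the membrane and bind protein 4.1 inside the cell, Cntnap1 led at 133 and 85.1 CPM in replicates 1 and 2. It made up 87.9% and 86.2% of the total of the 4 members per kilobase. Cntnap2 was at 25.5 and 20.0 CPM and Cntnap4 at 3.83 and 2.26 CPM. For Cntnap3 both libraries had 0 counts, which allows up to 3 counts, or 0.0958 CPM (replicate 1) and 0.0917 CPM (replicate 2). These limits cover counting error only. Reads that also aligned elsewhere were not counted on any gene, and the annotation behind the counts is not stated, so it is not known whether this line could collect reads and the limits may not bound the gene's level. The mouse relatives Cntnap5a (34.3 and 23.7 CPM) and Cntnap5b (60.01 and 59.0 CPM), which are not members of the group, were also counted. The shares above leave them out, as well as Cntnap5c (2.81 and 3.61 CPM), and would be smaller with them. Per kilobase of exon Cntnap5b (11.5 and 11.3 CPM per kb) was above Cntnap2 (2.49 and 1.95 CPM per kb), while the range of Cntnap5a (3.13 and 2.16 CPM per kb) overlapped that of Cntnap2.

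The NCAMs are homophilic adhesion molecules, and the product of Ncam1 is the main carrier of polysialic acid in brain. Ncam1, on chromosome 9 (49502136 to 49798925, minus strand), was at 294 and 216 CPM in replicates 1 and 2. Ncam2 was closer between the libraries, at 123 and 125 CPM. Ncam1 took 75.7% and 69.4% of the pair's total per kilobase. Gene counts do not separate the transmembrane and GPI-anchored forms of Ncam1.

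All 4 members of the L1 family, whose inner ends bind ankyrins, were detected. Nrcam, on chromosome 12 (44328885 to 44601964, plus strand), was highest at 380 and 288 CPM. Chl1, the close homologue of L1, followed at 210 and 215 CPM, and Nfasc, whose long form sits at axon initial segments and nodes of Ranvier and whose short form is glial, at 177 and 159 CPM. The founding member L1cam was lowest at 42.4 and 29.0 CPM. In the same libraries the ankyrin genes Ank3 (572 and 711 CPM) and Ank2 (463 and 680 CPM) were well above the erythrocyte ankyrin gene Ank1 (3.99 and 10.03 CPM), an order that was the same per kilobase of exon. The family was shared more evenly than the contactins, with Nrcam at 44.6% and 39.8% of its total per kilobase and L1cam at 9.04% and 7.28%.

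SynCAMs bind each other across the synaptic cleft, mostly in unlike pairs, and carry an inner PDZ-binding end. Cadm2, on chromosome 16 (66655421 to 67620908, minus strand), was at 352 and 349 CPM in replicates 1 and 2. Cadm3, on chromosome 1, was at 231 and 201 CPM. These 2 genes made up most of the family total per kilobase, with 48.0% and 51.5% for Cadm2 and 42.5% and 40.3% for Cadm3. Cadm1, the member best known for inducing synapses in culture, was at 59.9 and 51.1 CPM. Cadm4, known from myelinating glia, was at 2.87 and 1.80 CPM, from 90 and 59 counts. With the longest transcript as length, Cadm3 and not Cadm2 led the family.

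IgLONs are small GPI-anchored proteins of 3 immunoglobulin domains that pair among themselves. Opcml, on chromosome 9 (27790775 to 28925410, plus strand), had 328 and 246 CPM in replicates 1 and 2. Negr1, on chromosome 3, had 315 and 224 CPM, and its shorter exons put it first per kilobase, with 47.9% and 46.3% of the family against 36.1% and 36.8% for Opcml. Their ranges over the 2 libraries overlap on both scales. Within each library, though, Negr1 was above Opcml per kilobase (30.0 against 22.6 and 21.3 against 16.9 CPM per kb) and below it in CPM. Lsamp, the limbic system-associated member, was at 113 and 105 CPM, and Ntm, neurotrimin, at 28.4 and 13.6 CPM. The fifth IgLON gene, Iglon5, which is not a member and is left out of the shares above, was at 20.3 and 20.7 CPM. Per kilobase of exon it was at 7.76 and 7.88 CPM per kb. That was above Lsamp (6.55 and 6.08) and Ntm (3.51 and 1.69 CPM per kb) in both libraries.

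Both Dscam genes, whose products keep branches of 1 neuron apart in the mouse retina, were detected. Dscam was at 124 and 82.2 CPM and Dscaml1 at 58.8 and 29.8 CPM. Of the Kirrel genes, Kirrel3 was the one at an appreciable level, 37.8 and 40.4 CPM in replicates 1 and 2. In the mouse its product is known from mossy fibre synapses onto GABAergic neurons. Kirrel2, known from olfactory axon sorting, was at 4.06 and 2.45 CPM, and Kirrel, the gene of a kidney filtration protein, at 2.24 and 1.74 CPM. Kirrel3 accounted for 81.5% and 88.0% of its family per kilobase.

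Nectins join cells side by side with cadherins through the scaffold afadin, and the unlike pair of Pvrl1 and Pvrl3 products (current symbols Nectin1 and Nectin3) is known from the adherens junctions of mossy fibre terminals in CA3. Pvrl1 was at 26.2 and 31.2 CPM in replicates 1 and 2, and Pvrl3 at 8.72 and 54.3 CPM. Pvrl4 was at 2.40 and 4.28 CPM. Pvrl2 had 0 counts in both libraries, and the same limits and doubt as for Cntnap3 apply. The afadin gene Mllt4 was at 72.7 and 79.4 CPM. The sidekicks, homophilic proteins that guide layer choice in the mouse retina, were low, with Sdk2 at 9.36 and 25.8 CPM and Sdk1 at 1.501 and 0.428 CPM from 47 and 14 counts.

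**Figure D2:**
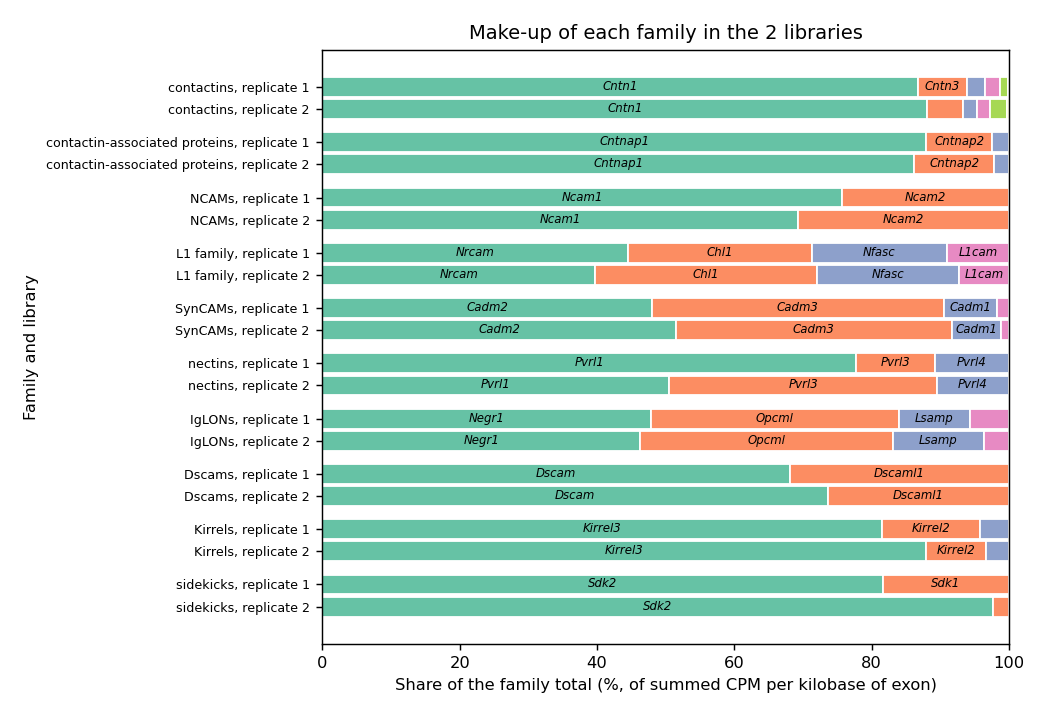
Share of each family's summed level per kilobase of exon (x axis, %) taken by each member, with 1 bar for each family and library. Cntn1, Cntnap1, Kirrel3 and Sdk2 each exceed 80% of the total of their family's listed members in both libraries. The share of Pvrl3 among the nectins is 11.5% in replicate 1 and 39.0% in replicate 2.

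Most of these genes differed little between the libraries and a few differed more, much as was seen over all symbols. Log2 ratios of replicate 2 to replicate 1 were taken for the 31 members averaging 1 CPM or more, after scaling by trimmed means (TMM). They compare 2 libraries of 1 group and no conditions, so they carry no p-value. Of the 31, 23 differed by less than 1.5-fold, while 73.1% of all 13089 symbols at that level did. No member was at least 2-fold lower in replicate 2 (5.75% of symbols) and 3 were at least 2-fold higher (4.51% of symbols). Those 3 were Pvrl3, Sdk2 and Cntn5. Among the 23 members averaging 10 CPM or more, 2 were at least 2-fold higher (2.18% of symbols at that level) and 0 at least 2-fold lower (1.01%).

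Pvrl3 was the member that differed most. It had 273 counts in replicate 1 and 1775 in replicate 2, a log2 ratio of 2.72 with an exact (Clopper-Pearson) 95% counting interval of 2.55 to 2.92, or 6.59-fold. Sdk2 had 293 and 844 counts, a log2 ratio of 1.55 (1.36 to 1.75). Cntn5 had 60 and 141 counts, a log2 ratio of 1.23, and its wider interval of 0.82 to 1.72 reaches below 2-fold. The activity-induced genes Arc (33.2 and 265 CPM) and Egr3 (304 and 2071 CPM) were also higher in replicate 2. So were the summed levels of oligodendrocyte precursor and GABAergic markers given above, although Olig1 and Sox10 among the first, and Slc32a1, Lhx6, Sst and Erbb4 among the second, were lower. Their part in these 3 differences was not tested. Pvrl4, with 75 and 140 counts and a log2 ratio of 0.91 (0.51 to 1.35), fell just short of 2-fold, and Pvrl1 had a log2 ratio of 0.34. All 3 nectin genes with counts were thus higher in replicate 2, while 50.8% of all symbols averaging 1 CPM or more were lower. The nectin total went from 5.96 to 10.9 CPM per kb, mostly through Pvrl3 (0.684 and 4.26 CPM per kb).

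The sequence before the start site of these 3 genes is shown because they differed most between the libraries in the same direction. Each line gives the 250 bases before the RefSeq start of transcription (GRCm38.p6), 5′ to 3′ on the gene's strand. Capitals mark the GC box, GGGCGG or its complement.
Pvrl3: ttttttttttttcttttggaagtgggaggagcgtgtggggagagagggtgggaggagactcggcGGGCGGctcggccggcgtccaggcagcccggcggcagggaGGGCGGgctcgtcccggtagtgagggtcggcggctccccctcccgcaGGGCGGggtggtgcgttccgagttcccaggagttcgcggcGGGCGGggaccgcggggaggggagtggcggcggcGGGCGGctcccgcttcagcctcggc
Sdk2: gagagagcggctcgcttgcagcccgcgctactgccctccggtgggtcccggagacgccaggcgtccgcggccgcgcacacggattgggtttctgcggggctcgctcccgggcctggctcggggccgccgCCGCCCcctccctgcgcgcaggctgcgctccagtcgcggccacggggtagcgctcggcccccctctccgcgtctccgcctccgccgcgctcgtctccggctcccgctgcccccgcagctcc
Cntn5: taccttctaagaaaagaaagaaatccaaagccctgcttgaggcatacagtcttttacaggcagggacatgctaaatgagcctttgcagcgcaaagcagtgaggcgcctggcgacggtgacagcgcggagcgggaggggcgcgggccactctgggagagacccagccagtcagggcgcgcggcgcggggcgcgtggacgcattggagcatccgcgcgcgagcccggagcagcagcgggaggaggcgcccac

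These windows lie at chr16:46496968-46497217 for Pvrl3, chr11:114067030-114067279 for Sdk2 and chr9:10904776-10905025 for Cntn5, all on the minus strand. RefSeq lists another start for Cntn5 slightly downstream, and the upstream one is shown. In the GENCODE annotation Pvrl3 begins further upstream, at 46498525, so its window lies inside the annotated gene, and that of Sdk2, which begins at 114067046, overlaps its first bases. All 3 windows are rich in G and C, at 73.2%, 78.8% and 64.8%, against a median of 52% over 27025 promoters with 1 window per gene. They hold 30, 38 and 24 CG pairs, where the median promoter holds 6. Promoters of the other members, or of detected genes alone, were not measured separately. Pvrl3 has 5 GC boxes, all on its own strand, at 186, 146, 99, 59 and 25 bases before the start counted to the first base of each box. Sdk2 has 1 on the other strand, and Cntn5 has none. A GC box on either strand is found in 32.96% of promoters. Searches on both strands for the cAMP response element TGACGTCA (1.60% of promoters), its half-site TGACG (17.8%), the AP-1 site TGANTCA (6.85%), the Egr site GCGNGGGCG (4.63%), the E-box CACGTG (6.04%) and the TATA box TATAAA (12.98%) found no match in the 3 windows. A match or its absence describes these letters only.

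In the other direction, 21 of the 31 members had a log2 ratio below 0, against 50.8% of all symbols, and their median was -0.25 against -0.01. Ntm came nearest to 2-fold, with 889 counts in replicate 1 and 446 in replicate 2 and a log2 ratio of -0.96 (-1.13 to -0.80). It passed 2-fold (-1.05) when the libraries were scaled by their totals alone. Dscaml1 had 1842 and 974 counts, a log2 ratio of -0.89 (-1.004 to -0.78), and its relative Dscam a log2 ratio of -0.50. Cntnap4 (-0.65), Cntnap1 (-0.55) and Cntnap2 (-0.25) were all lower in replicate 2.

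The IgLON ratios were also all below 0, with Negr1 at -0.40 (-0.45 to -0.36), Opcml at -0.32 (-0.37 to -0.28) and Lsamp at -0.01 (-0.08 to 0.05), the last with an interval across 0. In the L1 family, L1cam (-0.45) and Nrcam (-0.31) were lower in replicate 2, Chl1 (0.13) was slightly higher and Nfasc was at -0.06. Ncam1 was at -0.35 and Ncam2 at 0.11. The members nearest to equality were Lsamp, Nfasc, Cadm2 (0.08), Cntn4 (-0.08) and Cntn1 (0.09), and the signs of Cntn1 and Cadm2 turned under library totals alone, to -0.00 and -0.02. That scaling moved the median of all symbols to -0.10. Sdk1, below the minimum at a mean of 0.965 CPM, had a log2 ratio of -1.59 (-2.69 to -0.83), opposite in sign to Sdk2.

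Over all symbols the ratios also varied with exon length. With genes split into 10 classes of exon length, symbols in the longest class had a median log2 ratio of 0.07 and those in the shortest -0.16. Of the 31 members, 25 lie in the 2 longest classes, where the medians of all symbols were 0.03 and 0.07. With each ratio centred on genes of like exon length, 21 members were below 0 and the same 3 past 2-fold, with a median of -0.29. The part of exon length in the members' ratios was not tested. Marker lists of several cell types differed between the libraries too. Among markers averaging 1 CPM or more, those of hilar mossy cells had a median log2 ratio of -0.88, with 3 of 4 below 0. Of these, Calb2 (111 and 47 counts) and Csf2rb2 (92 and 37 counts) were low. Ajap1 had a log2 ratio of -0.57, and Gria3, which held most of that list's CPM, 0.01. Markers of CA pyramidal cells were at -0.36, with 6 of 7 below 0, and those of oligodendrocytes at -0.33, with 5 of 7 below 0. The medians were 1.05 for oligodendrocyte precursors (2 of 6 below 0), 0.25 for astrocytes (2 of 8), 0.21 for endothelial cells (2 of 5), 0.19 for granule cells (2 of 10) and 0.12 for GABAergic neurons (3 of 6). The part of any of these cells in the members' ratios was not tested.

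**Figure D3:**
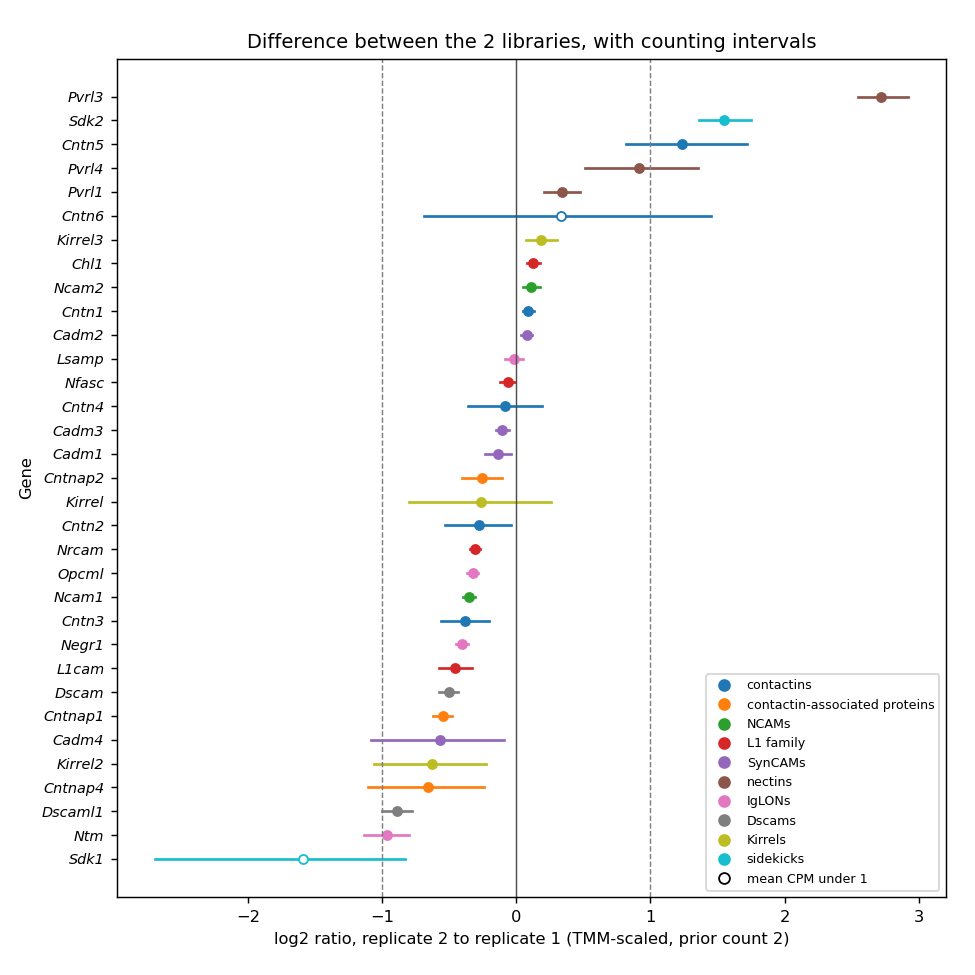
Log2 ratio of replicate 2 to replicate 1 for the 33 adhesion genes with counts (points), with exact 95% counting intervals (bars), coloured by family. Dashed lines mark 2-fold. Open points have a mean CPM under 1. Pvrl3 stands apart at 2.72, Sdk2 at 1.55 and Cntn5 at 1.23 follow, and Ntm at -0.96 lies just inside the line.

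**Figure D4:**
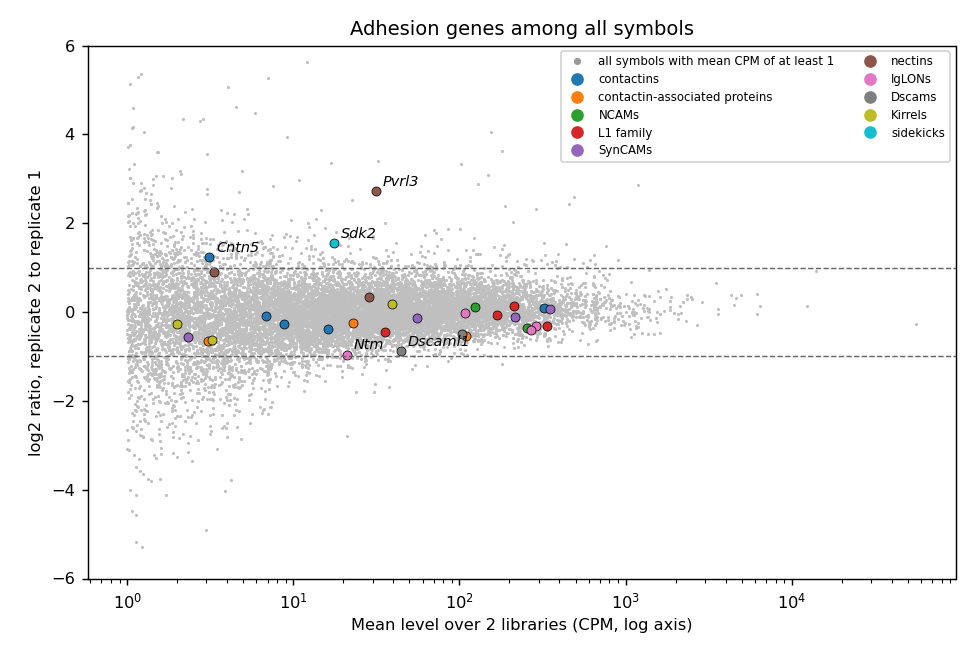
Log2 ratio of replicate 2 to replicate 1 (y axis) against mean level in CPM (x axis, log) for all 13089 symbols averaging 1 CPM or more (grey) and the adhesion genes among them (coloured by family). The members above 100 CPM lie within the grey band, from -0.55 for Cntnap1 to 0.13 for Chl1. Pvrl3 lies higher, at 2.72, though other symbols such as Arc (3.08) and Egr3 (2.86) lie higher still.

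The adhesion genes share a genomic trait that did not enter their choice. They are long, with a median span from first to last exon of 297 kb against 27.5 kb for the 11465 detected protein-coding genes. Of the 35, 25 span over 100 kb, as do 16.7% of detected protein-coding genes, and 5 span over 1000 kb. The longest is Cntnap2, at 2245 kb on chromosome 6 (45059357 to 47304213, plus strand), followed by Lsamp at 2197 kb on chromosome 16. Short and long loci were found at high and at low levels. Cntnap1 (20.2 kb) and Cadm3 (34.4 kb) are among the shortest and were at 18.5 ± 5.72 and 29.8 ± 2.86 CPM per kb, while Cntnap2 was at 2.22 ± 0.377 CPM per kb. In the other direction, Kirrel2 (10.2 kb) was at 0.825 ± 0.289 and Opcml (1135 kb) at 19.8 ± 4.02 CPM per kb.

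Several members are neighbours. Chromosome 9 carries 8 of the 35, among them Opcml and Ntm, which lie 69.3 kb apart on opposite strands, the first at 19.8 ± 4.02 and the second at 2.60 ± 1.29 CPM per kb. Chromosome 6 carries a run of Cntn3, Chl1, Cntn6 and Cntn4, with gaps of 937, 743 and 814 kb. Within that run Chl1 was at 17.3 ± 0.284 CPM per kb and Cntn6 at 0.0815 ± 0.0111 CPM per kb, with ranges far apart. On chromosome 1, Cntn2 and Nfasc lie 21.4 kb apart on the minus strand, at 0.939 ± 0.172 and 11.9 ± 0.914 CPM per kb. Exons of 10 members share bases with another annotated gene, at most 8.01% of a member's exon bases, for Cntnap4. Cntn5, which was past 2-fold between the libraries, shares 6.4% with a gene on the opposite strand. Reads there could be lost or, without a stated strand setting, not told apart from the partner's.

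Genes that work with these molecules were also counted, from a list of 69 relatives, ligands, inner partners and enzymes. Of the 69, 63 were detected, against 38.1% of all symbols in the tables, many of which have no counts. The median over the list was 28.2 CPM. Igsf9, Mcam, Crtam, Mdk, Tnc and St8sia2 were not. All 23 inner partners were detected, with a median of 66.3 CPM. Highest by mean CPM, not corrected for length, were the spectrin gene Sptbn1 (548 and 915 CPM), Ank3, the protein 4.1 gene Epb4.1l1 (636 and 610 CPM) and Ank2. Pak1, a kinase acting on actin, was at 562 and 499 CPM. Per kilobase of exon Pak1 was highest of the 23, at 143 and 126 CPM per kb. Ank3 (16.4 and 20.4 CPM per kb) and Ank2 (13.2 and 19.4 CPM per kb) stood lower on that scale. Of 15 ligands and co-receptors 13 were detected. The synaptic ligand Lgi1 (540 and 471 CPM), the matrix proteoglycan Ncan (296 and 303 CPM), App (219 and 202 CPM) and the Lgi1 receptor Adam22 (212 and 203 CPM) were highest by their mean. The contactin-binding phosphatases Ptprz1 and Ptprg were at 106 and 208 CPM and at 60.7 and 55.6 CPM, and Tnr, an extracellular ligand of Cntn1 and Nfasc products, at 103 and 93.9 CPM.

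Of the other immunoglobulin relatives, 20 of 23 were detected, again against 38.1% of all symbols. Highest by mean CPM were Thy1 (330 and 231 CPM), Nptn (276 and 226 CPM), Bsg (169 and 132 CPM) and Igsf11 (151 and 103 CPM). Per kilobase of exon Bsg (93.1 and 73.0 CPM per kb) was above Nptn (44.7 and 36.7 CPM per kb). The enzymes that add polysialic acid to Ncam1 product were low, with St8sia4 at 7.38 and 12.8 CPM and St8sia2, the form known from immature neurons, at 0.958 and 0.122 CPM. B3gat1, which makes the HNK-1 sugar found on several of these proteins, was at 171 and 126 CPM. The shedding proteases Adam10 (42.8 and 38.1 CPM), Bace1 (31.4 and 22.7 CPM), which cuts Chl1 product, and Adam17 (2.87 and 3.82 CPM) were all detected. Of the 64 partner genes averaging 1 CPM or more, Ank1 and Ptprz1 were past 2-fold towards replicate 2 and Igsf9, Nphs1 and Msn towards replicate 1, next to 4.51% and 5.75% of all symbols.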

How the data were processed

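The authors deposited counts per gene symbol, not normalised, in 1 table per library. Alignment tools and the build, per the submitters' processing notes, were STAR 2.0.0e with HTSeq on mm10, while neither annotation nor strand setting is stated in these sources. HTSeq's summary lines and the line unknown were left out of totals. Gene lines held 65.0% of all counts in replicate 1 and 64.9% in replicate 2. CPM, log2 ratios (TMM scaling in edgeR 4.0.16, prior count 2) and exact 95% intervals (scipy 1.17.1) were computed here. Exon lengths are unions of GENCODE M21 exons (GRCm38) and covered 95.4% of detected symbols; promoters are from RefSeq. With 1 group, edgeR's test could not be used and no p-value is given. Alternatives were library totals alone, DESeq2 1.42.0 size factors, other thresholds, prior count, lengths and single libraries. Reads carry no molecular identifiers, so intervals cover counting error only. The members and lists were chosen with earlier results of these data known. The genes named are all members, the highest, undetected and 2-fold different partners, and a few cell markers; Arc, Egr3, Ank1 and several other partners and markers were named after their values were seen.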

Additional observations from a re-analysis of the deposited data

How the results depend on the processing

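No paired analysis was possible because there is 1 group and no comparison between groups. The median level of the 35 members was 31.5 CPM with both libraries, ranged from 28.4 to 29.8 CPM with 1 library left out, and was 33.3 CPM with Rn45s, a ribosomal RNA gene, and Lars2 left out of the totals. The median log2 ratio of members moved from -0.25 to -0.35 with library totals alone. The number of members at least 2-fold lower in replicate 2 went from 0 to 1 with library totals alone (Ntm) and to 1 with no minimum level (Sdk1). The 3 members at least 2-fold higher stayed 3 under every scaling and prior count, and were 2 at a mean CPM of at least 10. Members detected ranged from 31 to 32 with 1 library left out, and were 21 at a threshold of 10 CPM. With the longest transcript or with no length correction, 8 of 10 family leaders were those given in the text. The exceptions were Cadm3 for the SynCAMs with the longest transcript, Opcml for the IgLONs with no length correction, and Pvrl3 for the nectins in replicate 2 in both cases. The centring on exon length was chosen after the data were seen. Under the other settings 131 values of single genes moved less than the allowed spread and 28 more, with no called ratio changing sign. Leaving out 1 of 2 libraries is not counted here, since the mean then always moves by less than the SD. Depth limits Cntn6 and Sdk1. For Cntnap3 and Pvrl2 it is not known whether their lines could collect reads.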
